A study of Mus musculus with 4 samples.

Results

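Mature migratory dendritic cells were examined in single-cell RNA sequencing of 4 subcutaneous tumours grown from MC38, a mouse colon carcinoma line. The injected cells were Hnrnpa2b1 KO in 2 tumours and WT in the other 2. Hnrnpa2b1 belongs to the hnRNP family, whose proteins bind RNA and act in its splicing and transport. The hosts of both groups were C57BL/6J mice of 8 weeks that received the cells under the skin of the left flank, and the labels name no further allele, drug or time of excision. By the labels the knockout lies in the injected line, so the dendritic cells come from hosts with an intact gene. Whether the KO line was 1 clone, and where the gene was edited, is not given in the sources used here. Tumours were digested with collagenases, dispase and DNase, and no sort is stated.

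The cells were selected on measured values. A barcode needed at least 300 genes, at least 500 UMIs (unique molecular identifiers, the counts of captured RNA molecules) and at most 20% mitochondrial UMIs. The sum of Krt14, Sox9, Hmga2, Tnnt2, Tubb3, Crabp2 and Ankrd1, taken as tumour genes, had to lie under 20 per 10000 UMIs. At least 1 UMI of Ccr7 and at least 1 UMI each of 2 second markers among Fscn1, Ccl22, Il4i1, Cacnb3, Il12b and Nudt17 were required, with no UMI of Cd3d, Cd3e or Cd3g. These conditions were met by 171 of 42710 kept barcodes, which were 45 from WT tumour 1, 15 from WT tumour 2, 64 from KO tumour 1 and 47 from KO tumour 2. The libraries held 114136609 to 153162562 UMIs. Below, 4 values in a row are in that order of tumours, and a level is the number of UMIs of a gene per 10000 UMIs summed over the cells of a tumour.

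Dendritic cells that have taken up antigen can enter a maturation program in which they stop sampling their surroundings, place peptide-loaded MHC and costimulatory molecules on the surface, and acquire the chemokine receptor CCR7. CCR7 binds the ligands CCL19 and CCL21 and guides the cells through lymphatics to the draining lymph node, where they meet naive T cells. The same program, described in tumours of mouse and human, joins T cell activating genes such as Il12b and Cd40 with inhibitory ones such as Cd274, and much of it lies downstream of NF-kappaB, above all of the RelB and p52 dimer.

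Short promoter stretches of 2 NF-kappaB pathway genes are shown because both genes belong to the list in which these cells stood apart from macrophages. The sequences are from RefSeq promoter windows of GRCm38.p6, 5′ to 3′ on the strand of the gene, with the motif GGGANNTTCC in capitals, searched on both strands in the 250 bases before each start. Of 22 genes of the list, 19 had a window and 2 held the motif, against 1.21% of all 32851 windows. The list was counted by gene and the background by window, and a gene can have several windows. These shares are therefore not like for like. Nfkbia encodes an inhibitor that holds NF-kappaB in the cytoplasm, and Nfkb2 encodes p100, the precursor of p52.
Nfkbia, chr12:55492652-55492691, minus strand, motif on the other strand: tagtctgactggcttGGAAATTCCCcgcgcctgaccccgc
Nfkb2, chr19:46305445-46305483, plus strand, motif on the other strand: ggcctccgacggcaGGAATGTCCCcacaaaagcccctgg
Nfkb2, chr19:46305690-46305729, plus strand, motif on the strand of the gene: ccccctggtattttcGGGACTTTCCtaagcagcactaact
Nfkb2 stood at 2.25, 2.57, 2.73 and 2.59 UMIs per 10000 in the mature cells, against 0.786 to 1.07 in macrophages of the 4 tumours. Nfkbia stood at 9.95, 8.92, 12.2 and 8.57 against 3.78 to 6.50. Both genes were higher in the mature cells of every tumour than in macrophages of any. A motif match is a description of letters and not a measured binding site.

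The 171 cells were unequal in depth and in kind. Their median UMIs were 4215, 2922, 8620 and 4661, and their summed UMIs 329591, 66118, 934042 and 401318, so the WT tumours gave the smaller sums. Exactly 1 Ccr7 UMI was found in 6, 0, 15 and 12 of them, 33 in all. Of those 33 cells, 22 were deep, with 17005 to 90240 UMIs, and 11 held 709 to 10626 UMIs. Their median UMIs were 21478, 38601 and 21164 in the 3 tumours that had them, against 4136, 2922, 7559 and 4541 in the 138 cells with 2 or more Ccr7 UMIs. They held 41.1%, 0%, 56.8% and 59.1% of the UMIs of all mature cells of a tumour.

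The second markers of the cells with 1 Ccr7 UMI were mainly Fscn1 and Cacnb3, a calcium channel subunit. Fscn1, which encodes an actin-bundling protein, was found in 28 of 33, and Ccl22, a chemokine that attracts CCR4-bearing T cells, in 6 of 33. Among cells with 2 or more Ccr7 UMIs, 92 of 138 held Fscn1 and 120 of 138 held Ccl22. Cacnb3 was found in 26 of 33 and 113 of 138, and these shares were not tested. Fscn1 was also found in 70.1%, 68.6%, 89.4% and 92.2% of tumour-gated barcodes, whose median UMIs were 14233, 15249, 41089 and 33102. Cd74, the invariant chain of MHC class II, stood at 6.05, 12.1 and 8.05 per 10000 in the cells with 1 Ccr7 UMI, against 115, 125, 150 and 121 in the rest. Relb stood at 0.221, 0.528 and 0.590 against 2.52, 3.02, 3.67 and 5.55. Both genes were lower in the cells with 1 Ccr7 UMI in each of the 3 tumours, which is given as a description with no test, since Ccr7 is a gene of the rule. These sums were carried by the deep cells. Cd74 stood at 5.25 per 10000 over the 22 deep cells and at 134 over the 11 others, of which 2 reached at least 100 per 10000. Those 2 cells held 270 and 160 of the 460 Cd74 UMIs of the 11, so the value of 134 is mainly theirs.

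Some of the selected cells also met the marker gate of another cell type. This held for 5, 0, 12 and 7 cells, among them 8 fibroblast-gated cells, all in KO tumours (4 in each), and all of them with 1 Ccr7 UMI. The 8 cells held 17.6% and 20.7% of the UMIs of KO tumours 1 and 2. The 10 fibroblast markers summed to 13.6, 17.2, 112 and 110 per 10000 over all mature cells, to 13.6, 17.2, 60.6 and 3.14 without the fibroblast-gated cells, and to 12.1, 17.2, 4.66 and 2.38 in the cells with 2 or more Ccr7 UMIs. Taking out the fibroblast-gated cells did not take out all fibroblast RNA. A KO tumour 1 cell of the neutrophil gate, with 30910 UMIs and 1 Ccr7 UMI, held 1285 fibroblast-marker UMIs per 10000. Without every cell that met another gate, the markers summed to 12.9, 17.2, 5.51 and 3.15. No barcode of a mature cell was shared between libraries. Because these cells weigh on every sum, comparisons between KO and WT are given for all 171 cells, without the fibroblast-gated cells and for the 138 cells with 2 or more Ccr7 UMIs. The last 2 sets were defined after the data were seen, and the Ccr7 cut uses a gene of the rule.

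**Figure D1:**
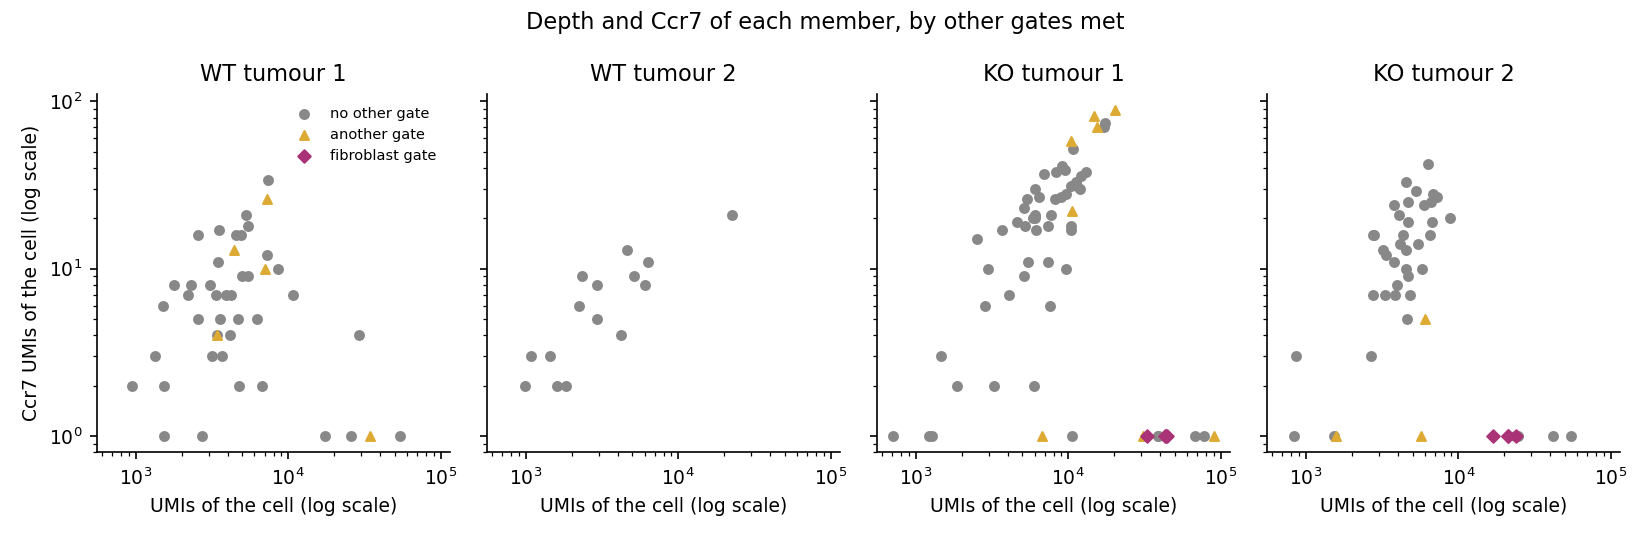
Each point is 1 of the 171 selected cells, with its UMIs on the x axis and its Ccr7 UMIs on the y axis, both on log scales, in 1 panel per tumour. Grey circles met no other gate, yellow triangles another gate and purple diamonds the fibroblast gate. The row of points at 1 Ccr7 UMI reaches the greatest depths in WT tumour 1 and both KO tumours and is absent from WT tumour 2, and all 8 diamonds lie in it.

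The label was checked against genes outside the rule. H2-Aa, a chain of MHC class II, stood at 24.7, 57.0, 36.1 and 26.2 per 10000, against 0.504 to 1.39 in tumour-gated cells. Detection of Cd74 does not part these cells from others, since it was found in 44, 13, 63 and 45 of them but also in 69.8%, 49.0%, 95.4% and 88.8% of tumour-gated barcodes. Flt3, the receptor for the growth factor of dendritic cells, was found in 10, 3, 18 and 22 cells, 20% to 46.8% of them, against 0.0327% to 0.601% of tumour-gated barcodes. Zbtb46, a transcription factor of conventional dendritic cells, was found in 9, 3, 29 and 12, against 4.74% to 18.2% of tumour-gated barcodes. The level of Flt3 was 0.394, 0.756, 0.321 and 0.772, against at most 0.00496 in macrophages. Markers of macrophages and B cells were low, whereas the fibroblast markers, at the 112 and 110 per 10000 given above for the KO tumours, were not, against 189, 186, 749 and 473 in fibroblast-gated cells. C1qa, a complement gene of macrophages, stood at 0.454 to 0.889 against 29.0 to 42.7 in macrophages, and the 10 macrophage markers summed to 3.48 to 6.54 against 163 to 218. Tumour markers, most of them capped by the rule, summed to 10.8, 6.05, 7.24 and 6.55, against 26.8 to 30.3 in tumour-gated cells. The rule's tumour genes stood at 16.2, 11.9 and 9.94 in cells with 1 Ccr7 UMI of WT tumour 1, KO tumour 1 and KO tumour 2. In the rest they stood at 6.59, 5.90, 0.792 and 1.16. The B cell genes Cd79a and Ms4a1, and Epcam, a marker of Langerhans cells, were found in 0 of 171 cells, which allows up to 1.75% of cells with a detected UMI and does not limit cells that express these genes below detection. Of subset markers, Xcr1 of cDC1 was found in 1, 0, 1 and 1 cells, and Cd209a of cDC2 in 1, 0, 0 and 1. The levels above are over all 171 cells. In the 138 cells with 2 or more Ccr7 UMIs, H2-Aa stood at 40.7, 57.0, 76.9 and 59.7, which parts them from tumour-gated cells. MHC class II does not part them from macrophages or cDC2-gated cells. Its 13 genes summed to 239, 325, 375 and 282 in the 138 cells, against 208 to 255 and 206 to 474. H2-Aa stood at 1.77, 5.13 and 3.03 in cells with 1 Ccr7 UMI of WT tumour 1, KO tumour 1 and KO tumour 2. The 22 deep ones among these held little Cd74 and are called mature only by the rule. Little Cd74 alone does not part them from the 138, since a KO tumour 1 cell with 21 Ccr7 UMIs held 2 Cd74 UMIs of 6034. A WT tumour 1 cell of the 138, with 28998 UMIs and 4 Ccr7 UMIs, held 22 Cd74 UMIs.

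Levels of the rule's own genes describe the selection and were not tested. Ccr7 (chr11:99144196-99155077 in GRCm38, minus strand) stood at 10.98, 16.0, 14.7 and 14.2 per 10000 over all mature cells, and at 18.3, 16.0, 33.6 and 34.0 in those with 2 or more of its UMIs. A cell held a median of 7, 6, 18 and 10 Ccr7 UMIs, and the highest cell held 34, 21, 89 and 42. Ccl22 stood at 14.7, 9.38, 8.48 and 7.95. Il4i1, which encodes a secreted amino acid oxidase that dampens T cells, stood at 4.19, 3.93, 2.11 and 2.27. Cacnb3 stood at 2.49, 4.99, 2.52 and 3.39. Macrophages held at most 0.0459 of Ccr7 and 0.0298 of Ccl22. Nearest to the threshold, 14, 5, 20 and 13 cells had exactly 2 second markers, with Ccr7 at 3.40, 15.3, 2.33 and 1.87 per 10000. The 31, 8, 29 and 26 barcodes just outside it, with 1 second marker, had Ccr7 at 2.49, 2.31, 2.68 and 3.66. Cd74 in these edge groups was 47.3, 179, 32.2 and 20.3 inside and 42.4, 41.4, 54.5 and 126 outside, so the edge of the rule does not part cells by this gene.

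Apart from the rule's genes, 1037 genes reached at least 1 per 10000 in the mature cells of each tumour. In 44 of these the level in every tumour lay above that of cDC1-gated, cDC2-gated and macrophage-gated cells in any tumour, and in 8 it lay at least 2 times above. These are descriptions with no test, since the same cells were chosen by related genes, and the cDC1 and cDC2 gates held 47 and 78 cells. The 8 genes were Rogdi, Ccl5, Tmem123, Serpinb9, Zmynd15, Serpinb6b, Tbc1d4 and Samsn1. Ccl5, a chemokine that attracts T cells, stood at 31.3, 22.7, 48.1 and 31.8, against at most 7.32 in macrophages and 2.15 in either dendritic gate. Serpinb9 and Serpinb6b encode intracellular protease inhibitors, of which the first blocks granzyme B. Serpinb9 stood at 4.49, 4.84, 5.12 and 5.91 against at most 1.59, and Serpinb6b at 5.13, 2.12, 4.71 and 5.21 against at most 0.940. Tbc1d4, a Rab GTPase regulator, stood at 5.46, 4.08, 5.66 and 7.35 against at most 1.88. In all 4 genes the lowest value was that of a WT tumour, and it still lay above the other 3 classes.

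**Figure D2:**
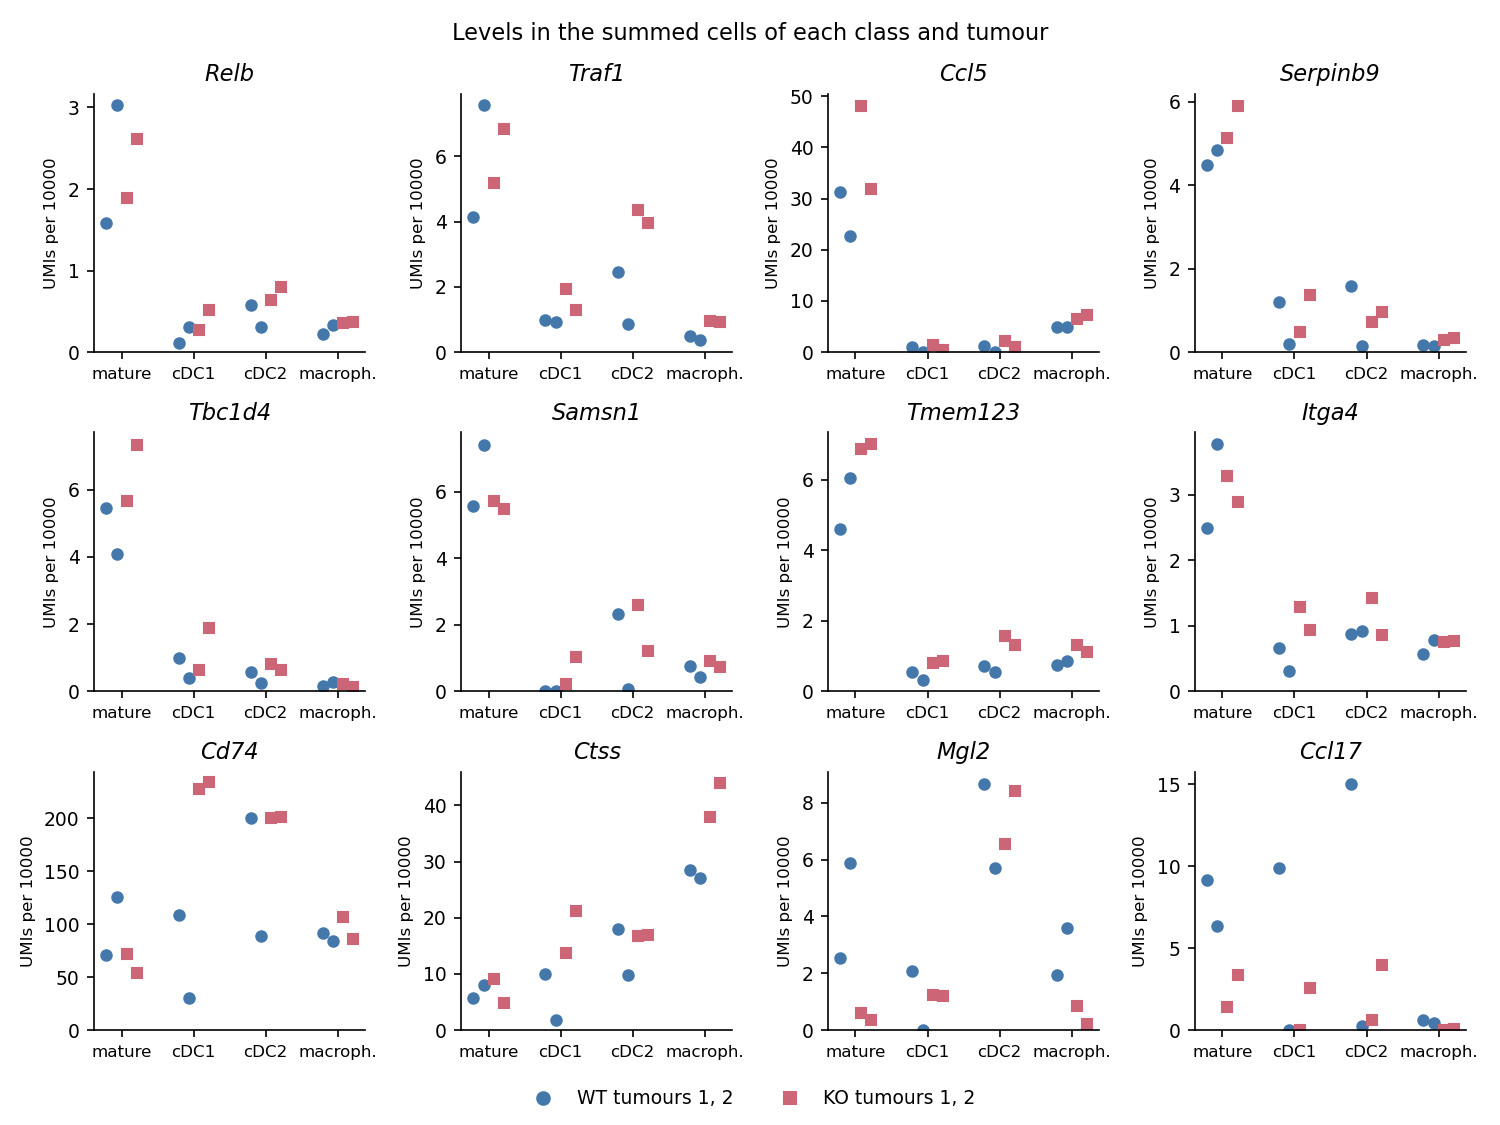
Levels of 12 genes in UMIs per 10000 (y axis, linear from 0) in the summed mature, cDC1-gated, cDC2-gated and macrophage-gated cells, with 1 point per tumour (blue circles WT, red squares KO). Relb, Ccl5, Serpinb9, Tbc1d4, Samsn1, Tmem123 and Itga4 lie above the other classes in every tumour, whereas Cd74 overlaps with them and Ctss is highest in macrophages. Mgl2 is highest in cDC2-gated cells except in WT tumour 2, where the mature cells lie slightly above them.

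Signalling genes of the NF-kappaB pathway stood above macrophages. Relb, the subunit that pairs with p52, was at 1.58, 3.02, 1.88 and 2.62 against 0.226 to 0.364 in macrophages. Traf1, an adaptor of TNF-family receptors, was at 4.13, 7.56, 5.19 and 6.83 against 0.379 to 0.947, and Birc2, a ubiquitin ligase of the same complexes, at 0.728, 2.27, 1.07 and 1.67 against 0.168 to 0.222. Over the list, 13 of 22 genes were above macrophages in every tumour, and their sum was 44.5, 59.9, 55.8 and 56.4 against 20.5 to 30.5. The sum in cDC2-gated cells, 41.3, 21.6, 52.4 and 50, overlapped with that of the mature cells, and neutrophil-gated cells of the KO tumours reached 83.3 and 100.04. The list of 44 other genes of the maturation program summed to 242, 255, 257 and 253 against 61.8 to 96.6, with 35 of 44 above macrophages in every tumour. In the cells with 2 or more Ccr7 UMIs the program summed to 389, 255, 539 and 558.

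Genes for uptake and degradation stood below macrophages. The 16 genes of lysosomal proteases and related proteins summed to 34.8 to 43.7 per 10000, against 199 to 324 in macrophages. Receptors of phagocytosis and pattern recognition summed to 11.3 to 25.1 against 73.8 to 100, and genes of sterol and lipid metabolism, which include Apoe, to 8.77 to 13.8 against 77.0 to 100. In cDC2-gated cells these lists summed, in that order, to 54.2 to 136, 24.2 to 41.9 and 8.69 to 15.1. In cDC1-gated cells the sums were 41.5 to 166, 10.8 to 63.9 and 11.5 to 20.8. The uptake and lipid sums of the mature cells thus overlapped with both dendritic gates, and the lysosomal sum with the cDC1 gate only. Lyz2, the macrophage lysozyme, stood at 4.22, 1.51, 2.46 and 2.04 against 68.8 to 108. No gene of the lysosomal or uptake lists was above macrophages in every tumour. MHC class II genes were not set apart in this way. They summed to 145, 325, 178 and 125, and to 239, 325, 375 and 282 in the cells with 2 or more Ccr7 UMIs, against 208 to 255 in macrophages and 206 to 474 in cDC2-gated cells.

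Ligands and receptors by which these cells address T cells were found in part. Of costimulatory molecules, Cd40, the receptor for CD40 ligand, stood at 1.33, 0.756, 1.28 and 0.748 against 0.214 to 0.472 in macrophages. Cd80, a ligand of CD28 and CTLA-4, stood at 0.485, 0.907, 0.824 and 0.947 against 0.206 to 0.489, and Cd86, its relative, at 1.52, 2.42, 1.91 and 1.30 against 1.11 to 2.49. Cd83, a maturation antigen, stood at 3.28, 6.81, 4.00 and 4.46 against 0.774 to 2.25. Cd40 and Cd83 thus lay above macrophages in every tumour, Cd80 overlapped with them only through WT tumour 1, and Cd86 overlapped with them throughout. Inhibitory molecules and enzymes, a list of 25 genes, summed to 14.99, 15.3, 17.8 and 15.4, below the 38.8 to 68.7 of macrophages. Of its 24 genes outside the rule, 3 lay above macrophages in every tumour. Of single inhibitory molecules, Cd200, a ligand of a myeloid inhibitory receptor, stood at 1.15, 0.907, 1.48 and 1.64 against 0.00924 to 0.0781. Cd274, which encodes PD-L1, stood at 1.46, 3.48, 2.81 and 2.47 against 0.630 to 2.46, and reached 4.49 to 12.7 in neutrophil-gated cells. Socs2, an inhibitor of cytokine signalling, stood at 1.15, 0.907, 1.21 and 2.59 against 0.189 to 0.350. No UMI of Ido1, Il12a, Ifnb1 or Ccl19 was found in the 171 cells.

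The 3 T cell directed products Il12b, Ccl22 and Ccl17 were not evenly spread over the cells. Il12b, the p40 chain of interleukin 12 and a gene of the rule, was found in 19, 2, 27 and 17 cells, and the highest single cell held 18.9%, 75.0%, 50.5% and 37.5% of its UMIs. In droplets, free RNA can give UMIs to cells that do not express a gene. The share of macrophages with an Il12b UMI was 0.272%, 0.122%, 0.363% and 0.118%, at median UMIs of 5960, 3760.5, 7549.5 and 6786. Ccl17, which like Ccl22 binds CCR4, was found in 24, 5, 16 and 10 cells, and 22, 5, 16 and 10 of these also held Ccl22. Il12b and Ccl17 were found together in 14, 0, 8 and 5 cells. Ccl17 (chr8:94810453-94812036) and Ccl22 (chr8:94745590-94751699) are neighbours on the plus strand of chromosome 8 in GRCm38.

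The share of mature dendritic cells was higher in the KO tumours among all kept barcodes, but the difference did not pass its test. It was 0.356% (exact 95% binomial interval 0.260 to 0.476), 0.134% (0.0749 to 0.220), 0.684% (0.527 to 0.872) and 0.495% (0.364 to 0.657), where the intervals cover counting error alone. The group means were 0.245% ± 0.157 in WT and 0.589% ± 0.133 in KO (SD, n = 2), with no overlap between the groups. The log2 ratio was 1.25 (standard error, SE, 0.53, edgeR adjusted p = 0.102 over 11 classes). Macrophages, by the same test, rose by a log2 ratio of 1.26 (adjusted p = 0.0320), and T cells by 2.44 (adjusted p = 0.00347). The test was passed at a stricter gate of 3 second markers and a Ptprc UMI, which held 13, 5, 33 and 26 cells (2.05, edgeR adjusted p = 0.0161). Of Ptprc-positive barcodes outside the tumour gate, these cells were 0.547%, 0.214%, 0.496% and 0.470%. On that base the groups overlapped, and it was not tested. The log2 ratio was 2.13 and 0.72 without WT tumours 1 and 2, and 1.01 and 1.47 without KO tumours 1 and 2. With barcodes thinned to 2000 UMIs before the gate it was 1.61 (edgeR adjusted p = 0.0877). Without the cells with 1 Ccr7 UMI the log2 ratio was 1.00 (edgeR adjusted p = 0.0987).

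The difference depended on the base of the share. Tumour-gated barcodes made up 5460, 3057, 1165 and 2403 of the kept barcodes. Of barcodes outside the tumour gate, the mature cells were 0.627%, 0.184%, 0.781% and 0.662%, again with both KO tumours above both WT tumours (log2 ratio 0.84, edgeR adjusted p = 0.303). Of barcodes with a UMI of Ptprc, the leukocyte antigen CD45, outside the tumour gate, the mature cells that also held one were 0.884%, 0.342%, 0.676% and 0.525%, and here the groups overlapped (log2 ratio -0.03, edgeR adjusted p = 0.958). Only 21, 8, 45 and 29 of the mature cells held a Ptprc UMI. Among mature, cDC1-gated and cDC2-gated cells together, the mature ones were 62.5%, 37.5%, 61.0% and 59.5% (log2 ratio 0.20, edgeR adjusted p = 0.716). WT tumour 2, with 15 mature cells, was the lowest on each of these bases.

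**Figure D3:**
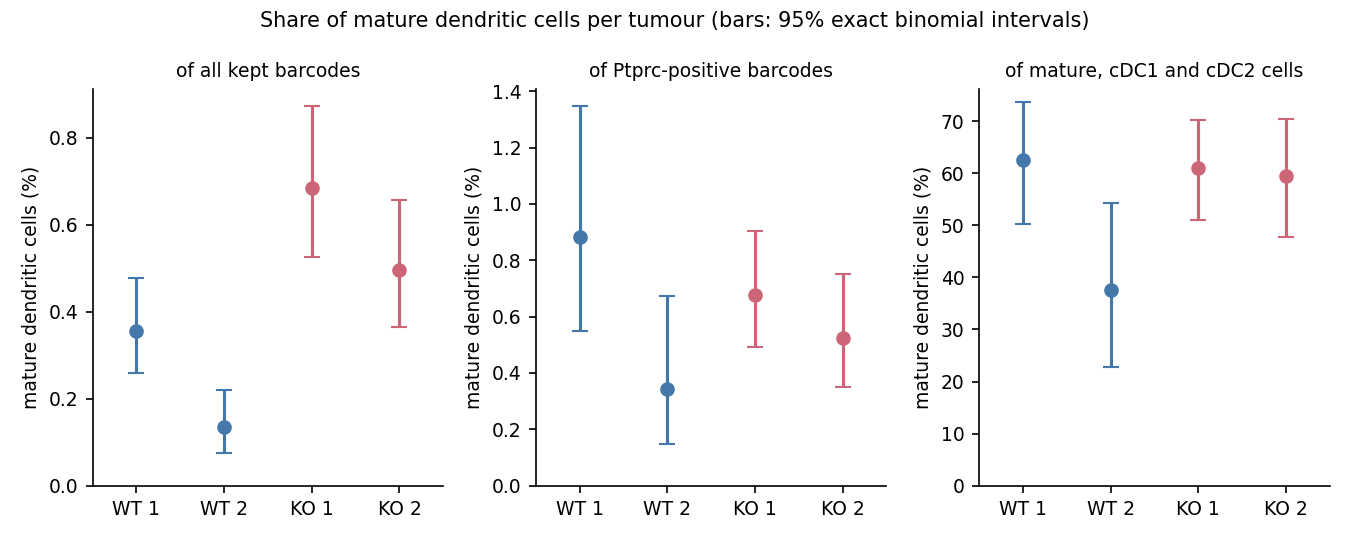
Percent of mature dendritic cells in each tumour (y axes, linear from 0) among all kept barcodes, Ptprc-positive barcodes outside the tumour gate, and mature, cDC1-gated and cDC2-gated cells together. Points are single tumours (blue WT, red KO) and bars are exact 95% binomial intervals. Of the 3 bases plotted, both KO tumours lie above both WT tumours on the first only, and WT tumour 2 is lowest on each.

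KO and WT tumours were compared gene by gene to ask how the state of these host cells goes with loss of Hnrnpa2b1 in the injected cells. Hnrnpa2b1 itself (chr6:51460932-51469894, minus strand) stood at 4.55, 4.84, 3.28 and 3.91 per 10000 in the mature cells. Its log2 fold change of -0.45 (SE 0.31) did not pass (edgeR adjusted p = 0.813). In tumour-gated cells, which should carry the edit, it stood at 5.85, 5.98, 3.77 and 3.11. The mature cells come from the host, and the position of the edit is unknown, so neither value checks the knockout fully.

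Over all 171 cells, 57 of 5472 genes tested rose in KO (1.04% of genes tested) and 1 fell (0.0183%), by edgeR's quasi-likelihood test on UMIs summed per tumour at an adjusted p under 0.05. Of these 58 genes, 53 were, among the other gated classes, most abundant in fibroblast-gated cells. How all 5472 genes spread over the classes is not given. Col1a1, a collagen chain, stood at 0.152, 0.302, 38.1 and 33.5 per 10000 (log2 fold change 7.53, SE 0.53, edgeR adjusted p = 0.000157). Without the fibroblast-gated cells it stood at 0.152, 0.302, 16.5 and 0.377, and in cells with 2 or more Ccr7 UMIs at 0.155, 0.302, 0.842 and 0.488. Without every cell that met another gate it stood at 0.146, 0.302, 0.702 and 0.361. The noncoding RNA Meg3 and the genes Tagln, Col12a1, Cpxm1, Lrrc15 and Creb3l1 had no UMI in either WT tumour and were at least 39.7, 36.1, 35.0, 20.8, 15.5 and 10.3 times higher in KO, against a floor of 3 counts over the WT group. Gm12840, Flt1, Rian, Ddah1 and Tnfaip6 were at least 6.62, 6.52, 6.42, 6.22 and 5.93 times higher by the same floor. Without the 8 fibroblast-gated cells, no gene of 4771 passed (0% of genes tested), and 201 had an unadjusted p under 0.05. Of the 58 genes, 46 could not be tested in that set. Of the 12 tested there, 11 had the same direction, and the median log2 fold change of the 11 risen genes among them went from 2.23 to 1.09. Without every cell that met another gate, no gene of 4417 passed either (0%), with 216 under 0.05 unadjusted.

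Among the 138 cells with 2 or more Ccr7 UMIs, most changed genes were others. Of 2891 genes tested, 39 rose (1.35%) and 90 fell (3.11%). None of the 39 had passed over all cells. Of the 90, 4 had, Mgl2 as fallen and Sparc, Col3a1 and Timp3 as risen. Leaving out also the 6 of these cells with 15000 or more UMIs (1, 1, 4 and 0), no gene of 2599 passed in either direction (0% each), with 285 under 0.05 unadjusted. Of the 39 and 90 genes, 39 and 42 could be tested there, and each kept its direction in these largely identical cells. The median log2 fold change there was 1.70 for the 39 risen genes, against 1.92 before, and -1.43 for the 42 fallen genes, against -2.60 over the 90 before. Thinning every cell with at least 2000 UMIs to 2000 left 1 call in 1197 genes (0.0835%), a fall of Mgl2, with 151 under 0.05 unadjusted.

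Mgl2 was the gene that fell. It encodes a C-type lectin for galactose-type sugars and marks a cDC2 and macrophage subset (chr11:70130329-70137550, plus strand). It stood at 2.55, 5.90, 0.589 and 0.349 per 10000 over all mature cells, so both KO tumours lay below both WT tumours. The log2 fold change was -3.01 (SE 0.45, edgeR adjusted p = 0.00917). In cells with 2 or more Ccr7 UMIs the levels were 4.12, 5.90, 1.34 and 0.732 (log2 fold change -2.18, SE 0.36, edgeR adjusted p = 0.00975). Thinned, the log2 fold change in those cells was -2.48 (edgeR adjusted p = 0.0339). The call was lost without the fibroblast-gated cells (-2.76, adjusted p = 0.528), without the 6 deep cells (-2.52, adjusted p = 0.120) and, over all cells, without KO tumour 1 (-3.58, adjusted p = 0.9998) or KO tumour 2 (-2.81, adjusted p = 0.9999).

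Few cells carried Mgl2. It was found in 12, 3, 10 and 7 mature cells, 26.7%, 20%, 15.6% and 14.9%, against 3.15%, 3.24%, 4.89% and 0.874% of tumour-gated barcodes at greater depth. The highest cell held 61.9%, 43.6%, 25.5% and 42.9% of its UMIs, and without that cell the levels were 0.991, 3.61, 0.444 and 0.202, still without overlap between the groups. Macrophages showed the same order, at 1.95, 3.601, 0.833 and 0.228, whereas cDC2-gated cells stood at 8.67, 5.71, 6.54 and 8.40 and overlapped. The change in mature cells differed from that in macrophages by -0.57 (edgeR adjusted p = 0.924) and from that in cDC1-gated and cDC2-gated cells by -3.41 (SE 0.65, edgeR adjusted p = 0.181), so neither difference passed.

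Other genes of smallest p in the same direction did not pass over all cells, and their values are given without a verb of change. Ccl17 stood at 9.16, 6.35, 1.40 and 3.36 per 10000 (log2 fold change -1.83, SE 0.42, edgeR adjusted p = 0.0870), and in cells with 2 or more Ccr7 UMIs at 15.6, 6.35, 3.24 and 8.23, where the groups overlapped (-1.06, adjusted p = 0.200). Thinned to 2000 UMIs over all cells, Ccl17 passed (-1.65, edgeR adjusted p = 0.0286). Gpr183, the oxysterol receptor that positions dendritic cells, stood at 1.58, 1.36, 0.492 and 0.648 (-1.50, edgeR adjusted p = 0.0766), with no overlap. Stmn1, a microtubule regulator of dividing cells, stood at 5.04, 7.56, 1.54 and 2.89 (-1.56, edgeR adjusted p = 0.118), where 1 of the 15 cells of WT tumour 2 held all of its UMIs. The heat shock genes Hspa1a and Hspa1b had log2 fold changes of -2.15 and -1.88, and Cst6, Ncoa3, Ltbp4 and Dap of -1.52, -1.40, -1.37 and -1.03.

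**Figure D4:**
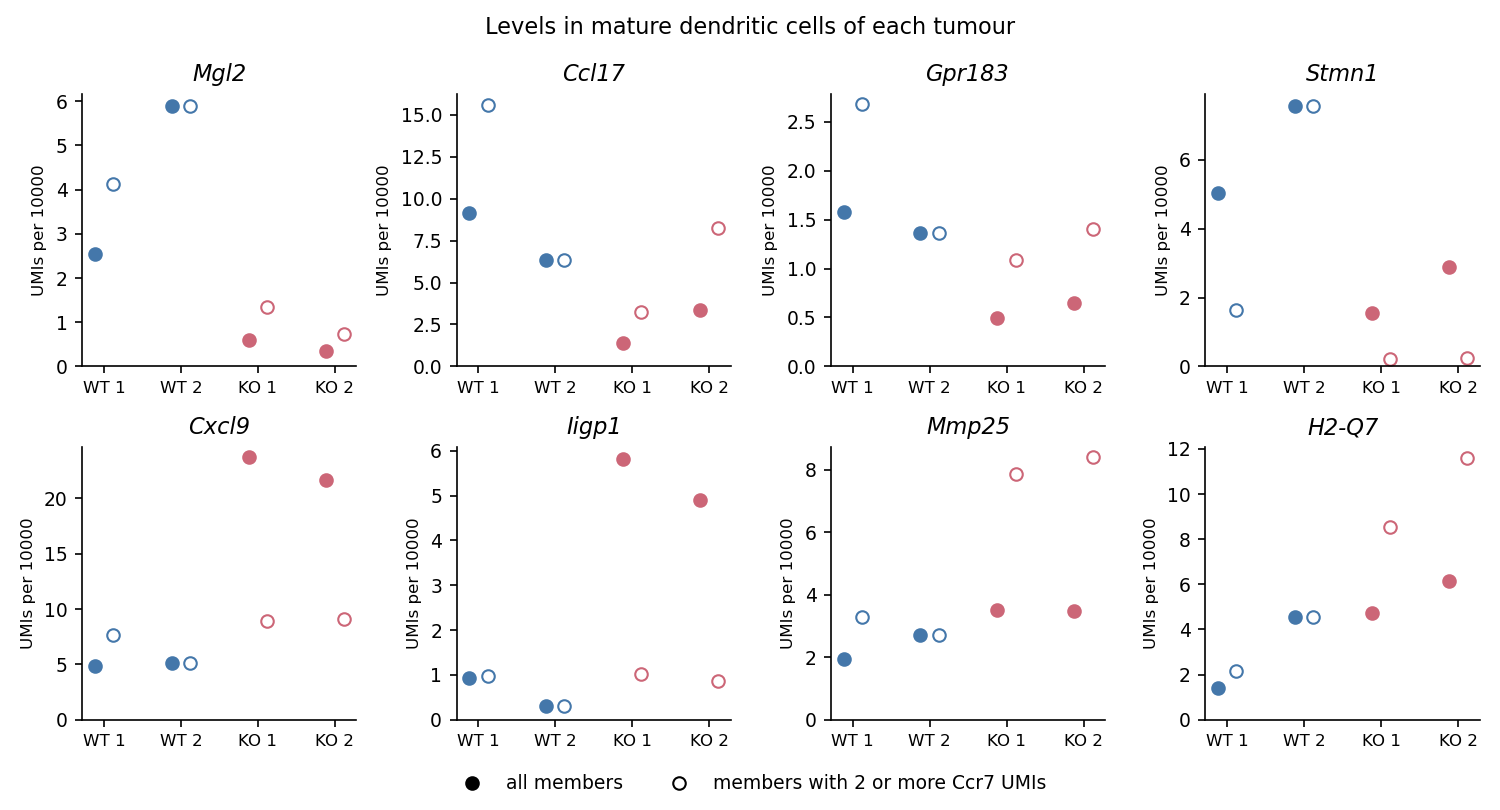
Levels of 8 genes in UMIs per 10000 (y axes, linear from 0) in the mature cells of each tumour, for all selected cells (filled circles) and those with 2 or more Ccr7 UMIs (open circles). Mgl2 is lower in both KO tumours with either set. Cxcl9 and Iigp1 are higher in KO over all cells and lie close together in the open circles, whereas Mmp25 and H2-Q7 separate in the open circles.

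Of interferon-linked genes, Cxcl9, Iigp1 and Ifi203 rose over all cells. In the cells with 2 or more Ccr7 UMIs the first 2 did not pass and Ifi203 was too low to be tested. Cxcl9, a chemokine for CXCR3-bearing T cells, stood at 4.88, 5.14, 23.7 and 21.7 (log2 fold change 2.12, SE 0.34, edgeR adjusted p = 0.0136). A single fibroblast-gated cell held 54.0% and another 46.2% of the Cxcl9 UMIs of KO tumours 1 and 2. Without the fibroblast-gated cells the log2 fold change of Cxcl9 was 0.19 (edgeR adjusted p = 0.999), and in cells with 2 or more Ccr7 UMIs it was 0.42 (adjusted p = 0.390). Iigp1, an interferon-induced GTPase, stood at 0.941, 0.302, 5.81 and 4.91 (2.73, edgeR adjusted p = 0.00917), and at 0.979, 0.302, 1.02 and 0.854 in cells with 2 or more Ccr7 UMIs (0.28, adjusted p = 0.765). Ifi203, an interferon-induced gene, and Fosb, an immediate early gene, rose over all cells by 2.94 and 1.97 (edgeR adjusted p = 0.0483 and 0.0296).

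The 39 genes that rose among cells with 2 or more Ccr7 UMIs were mostly most abundant in the dendritic cells themselves. The mean level over tumours was higher in these cells than in each of 7 other gated classes for 26 of the 39, against 0 of the 90 that fell. The share over all genes tested is not given. They are named here after their values were seen. Mmp25, a membrane-anchored metalloproteinase, stood at 3.30, 2.72, 7.88 and 8.41 (log2 fold change 1.37, SE 0.28, edgeR adjusted p = 0.0223). Gpr65, a receptor that senses acid, stood at 0.927, 0.605, 4.36 and 3.17 (2.17, SE 0.37, adjusted p = 0.00986). Cytip, which regulates adhesion of leukocytes, stood at 7.42, 7.56, 15.8 and 17.1 (1.10, SE 0.27, adjusted p = 0.0486). In each of these 3 genes both KO tumours lay above both WT tumours. Birc3, a ubiquitin ligase of TNF receptor signalling, Nfkbib, an NF-kappaB inhibitor, and Runx3, a transcription factor, rose by 1.41, 1.42 and 1.29. The MHC class I genes H2-Q6 and H2-Q7 rose by 1.65 each, and since they are near-identical copies their counts cannot be told apart with certainty. Thinned to 2000 UMIs, 27 of the 39 could be tested, each with the same direction and none past the threshold, and their median log2 fold change was 1.58.

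The 90 genes that fell among these cells were most abundant in other cells. Of these, 46 were most abundant in tumour-gated and 41 in fibroblast-gated cells. How all genes tested spread over the classes is not given, so these counts have no background. Sparc, a matrix protein gene, fell by 3.69 (SE 0.33, edgeR adjusted p = 0.00140), whereas over all cells Sparc rose by 1.75 (adjusted p = 0.0383). Krt14 of the rule and Col3a1 were also among them. The deepest cell of each tumour held 34.2%, 69.3%, 5.36% and 9.62% of the UMIs of the 90 genes, but 3.23%, 10.9%, 4.04% and 3.36% of those of the 39 genes. Its share of all UMIs of these cells was 14.9%, 33.9%, 5.01% and 5.36%. Stmn1 fell by 4.16 (edgeR adjusted p = 0.0122), with levels of 1.65, 7.56, 0.223 and 0.244, found in 20, 1, 9 and 4 cells, so that the level of WT tumour 2 is that of 1 cell.

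Gene lists moved by different amounts in the 3 sets of cells, with a median log2 fold change over all genes tested of 0.01 in each. Counts of risen or fallen genes are to be read against the shares of all genes tested, 1.04% risen and 0.0183% fallen over all cells, and 1.35% risen and 3.11% fallen in the cells with 2 or more Ccr7 UMIs. The maturation program had a median of 0.08 over all cells, with 0 of 41 genes past the threshold. The program's median was 0.32 without the fibroblast-gated cells and 0.72 in the cells with 2 or more Ccr7 UMIs, where 0 genes passed. There 37 of 39 genes had a positive value, against 1465 of 2891 genes tested. In those cells thinned the median was 0.39, with 25 of 33 positive, against 598 of 1197 genes tested. That set was cut on Ccr7, a gene of the rule and of the same program. These counts of signs are therefore a description, and the part of the cut in them was not tested. NF-kappaB genes had medians of 0.08, 0.29 and 0.55 in the 3 sets, and in the last set 2 of 21 rose (against 1.35% of all genes), Birc3 and Nfkbib. MHC class II genes had medians of -0.63, -0.39 and 0.13, with 0 of 10 past the threshold over all cells, so the sign depended on the cells taken. MHC class I and peptide loading genes had medians of 0.59, 0.52 and 0.75, with 0 of 23 past the threshold over all cells and 2 of 21, H2-Q6 and H2-Q7, risen in the last set.

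Interferon-gamma genes had medians of 1.40, 0.84 and 0.78, with 2 of 25 risen over all cells (Cxcl9 and Iigp1, against 1.04% of all genes) and 0 of 17 in the last set. Type I interferon genes had medians of 1.16, 1.02 and 0.71, with 1 of 17 risen over all cells (Ifi203) and 0 of 13 in the last set. Thinned, their median was 0.12. Costimulatory and inhibitory molecules had 0 of 9 and 0 of 14 genes past the threshold over all cells, with medians of -0.21 and 0.33, and 0.55 and 0.95 in the last set. Fibroblast markers had medians of 2.22, 0.32 and -2.27, with 5 of 9 risen over all cells and 2 of 4 fallen in the last set (against 3.11%). The part of the fibroblast RNA in the medians of the other lists was not tested.

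**Figure D5:**
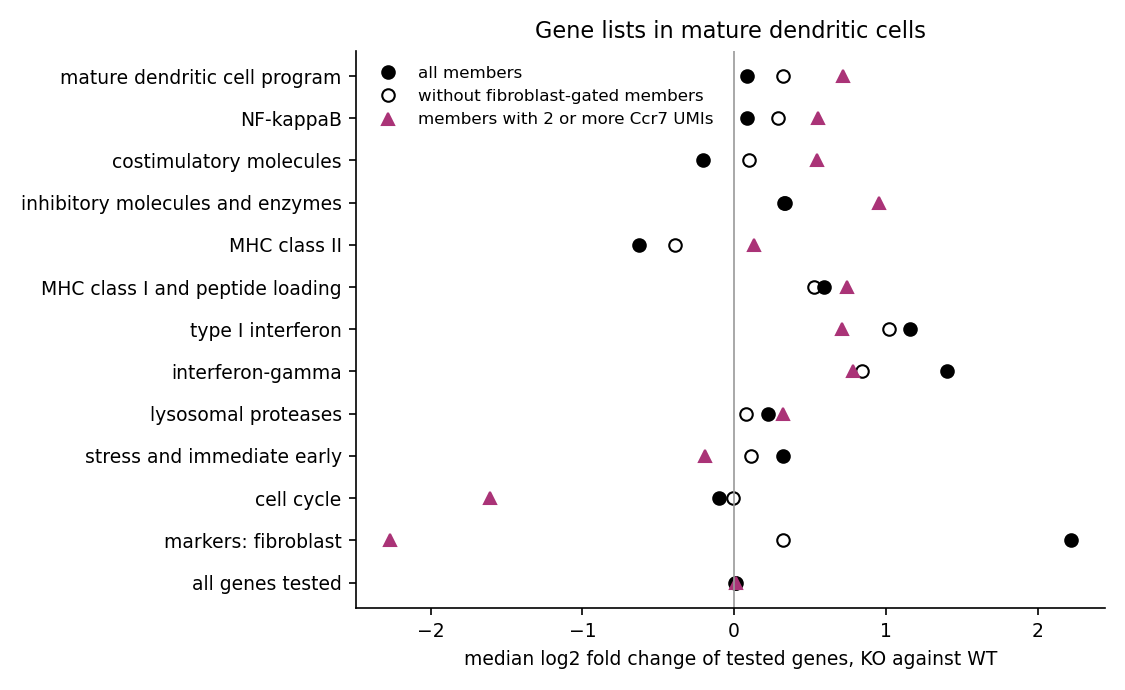
Median log2 fold change of KO against WT (x axis) over the tested genes of 12 lists and of all genes tested, for all mature cells (filled circles), without fibroblast-gated cells (open circles) and for cells with 2 or more Ccr7 UMIs (triangles). Fibroblast markers run from 2.22 to -2.27 across the sets, while the maturation program and NF-kappaB genes move from near 0 to 0.72 and 0.55.

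Whether the changes were particular to mature cells was tested against macrophages and against the joined cDC1-gated and cDC2-gated cells. Against macrophages the change differed in 33 of 11748 genes (0.281%), higher in mature cells for 32, among them Col1a1 (difference of log2 fold changes 6.07, SE 0.70, edgeR adjusted p = 0.00389). Ramp3, which encodes a receptor activity-modifying protein, was the 1 gene whose change was lower in mature cells (-2.62, SE 0.47, edgeR adjusted p = 0.0310). Its level in the mature cells was 2.46, 4.99, 3.83 and 4.73, where the groups overlapped, against 0.0196 to 0.220 in macrophages. The value is thus a difference of changes, with 1 class at very low levels, and not a fall seen in the mature cells. No gene differed from macrophages without the fibroblast-gated cells (0% of 11462 genes, 604 under 0.05 unadjusted) or without the cells with 1 Ccr7 UMI (0% of 11561, 810 under 0.05 unadjusted). Against the other dendritic cells no gene of 5807 passed in edgeR's test (0%), with 528 under 0.05 unadjusted. In simulated counts of this comparison 0% of genes changed 2-fold and 19% of those changed 4-fold were recovered.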

How the data were processed

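The authors deposited whole-number counts of UMIs per gene and barcode for each tumour, not normalized. Per the labels' protocols, Cell Ranger 5.0.1 aligned the libraries to mm10. Per the file headers, the matrices were written by Cell Ranger 6.1.2, and the sources used here do not settle which holds. Seurat 5.1.0 is named without its role, per the submitters' processing notes. All 55450 feature identifiers (100%) were found in GENCODE vM21 of GRCm38, from which positions were taken. Libraries held 114136609 to 153162562 UMIs over 9547 to 12741 barcodes, and 23 to 43 barcodes were shared between each pair of libraries.

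Barcodes were gated by marker counts in a fixed order, without clustering, and each went to the first gate it met. UMIs of each gated class were added up within a tumour, and these sums were tested with edgeR 4.0.16 (glmQLFit, glmQLFTest, TMM, filterByExpr) in R 4.3.3, two-sided, with Benjamini-Hochberg adjustment over all genes tested. Standard errors were derived from the log2 fold change and the F statistic. Differences between classes were interaction terms over 8 sums. Cell numbers were tested with the same test over 11 classes, with all kept barcodes as library size. With 2 tumours a group, the smallest p of an exact permutation test is 0.333. No label says what tumours of 1 number share, and p-values reflect the spread between these 4 tumours. Doublets were scored with Scrublet in scanpy 1.11.5 and removed only in an alternative, at 0.8% per 1000 barcodes.

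The cells and the 34 gene lists were chosen with earlier results of these data known. Named genes were up to 12 risen and 12 fallen with the largest change among those past the threshold at a mean of at least 20 CPM, members of the lists past the threshold, Hnrnpa2b1 and, where fewer than 5 passed in a direction, the 10 of smallest p. For levels they came from the 25 genes with the highest ratio to the other dendritic cells and macrophages. In counts simulated for the comparison over all mature cells (5472 genes), 12% of genes changed 2-fold and 72% of those changed 4-fold were recovered.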

Additional observations from a re-analysis of the deposited data

Results flagged for a closer look

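The change between KO and WT tumours differed between mature dendritic cells and macrophages in 33 genes by the test of the difference itself. Col1a1 differed by 6.07 and Meg3 by 11.6 on the log2 scale, both higher in the mature cells, and Meg3 had no UMI in the mature cells of either WT tumour, so its value depends on the fit and is no bound. Of the Meg3 UMIs, 291 and 111 lay in the mature cells of KO tumours 1 and 2, and 121 and 1 remained without the fibroblast-gated cells. No gene differed without the 8 fibroblast-gated cells, in which 55.5% and 97.7% of the fibroblast-marker UMIs of KO tumours 1 and 2 lay. A KO tumour 1 cell of the neutrophil gate, with 1285 fibroblast-marker UMIs per 10000, stayed in that set.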

How the results depend on the processing

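The number of genes changed between KO and WT moved with most settings. It was 58 as reported, 54 without TMM, 32 with DESeq2, 168 without a filter on low counts, 33 without high doublet scores, 33 without cells with macrophage or neutrophil UMIs, and 0 at a stricter gate of 3 second markers and a Ptprc UMI (13, 5, 33 and 26 cells, 1476 genes tested, 76 under 0.05 unadjusted). Of the alternatives added after the data were seen, it was 0 without the fibroblast-gated cells, 0 without cells of another gate, 14 for cells thinned to 2000 UMIs, 129 without cells with 1 Ccr7 UMI, 1 for those thinned, and 0 without cells with 1 Ccr7 UMI or with 15000 or more UMIs. Leaving out 1 tumour gave 0 to 383 genes. Over all cells it gave 23 and 99 without WT tumours 1 and 2 and 0 without either KO tumour, and without cells with 1 Ccr7 UMI it gave 172 to 383. The cause of these moves was not tested.

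The difference from macrophages was 33 genes as reported, 35 without TMM, 0 without the fibroblast-gated cells, 0 without cells with 1 Ccr7 UMI, and 0 to 72 without 1 tumour (0 and 1 without WT tumours 1 and 2, 64 and 72 without KO tumours 1 and 2). The difference from other dendritic cells was 0 genes, and 0 to 38 without 1 tumour. The log2 ratio of shares was 1.25 over all kept barcodes, 2.05 at the stricter gate (adjusted p = 0.0161), reversed to -0.029 over Ptprc-positive barcodes, and ran from 0.72 to 2.13 without 1 tumour. Hspa1a ran from -2.56 to 0.19 without 1 tumour, reversed without WT tumour 1. Iigp1 reversed to -0.16 without cells with 1 Ccr7 UMI or with 15000 or more UMIs, and over the settings that leave out 1 tumour ran from -0.052 (also without cells with 1 Ccr7 UMI, without WT tumour 2) to 4.05 (all cells, without WT tumour 1).

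The labels number the tumours 1 and 2 in each group. The deviations of same-numbered tumours correlated at -0.0918 over 5472 genes, which does not pair them. With a replicate block, 108 genes changed between KO and WT, 38 differed from macrophages, and the log2 ratio of shares was 1.38, on 1 residual degree of freedom.

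Depth limits these results most in WT tumour 2, whose 15 cells held 66118 UMIs.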
